A study of Mus musculus with 6 samples.

Results

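The ciliary axoneme and multiciliogenesis genes are 39 mouse genes that build or regulate motile cilia. They were taken by name: a gene is a member if the array carries its symbol, and its brightest probe stands for it. Of the 39, 38 had a probe under their name, and Dnah12, an inner arm dynein heavy chain, had none. A total of 24 members were bright enough to be tested, among 20475 tested genes of 36870 gene names.

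RNA came from lung tumors of C57BL/6J mice with the genotype Ror1f/f; CAG-CreER; SPC-hEGFRdel746-750. In both groups Ror1 was floxed, the ubiquitous CAG promoter drove a Cre that tamoxifen switches on, and the promoter of surfactant protein C, a gene of alveolar type 2 cells, drove a mutant human EGFR. One group received tamoxifen and the other corn oil from 16 to 20 weeks of age, and tumors were collected at 20 weeks. Each of 3 tamoxifen samples shared 2 dye-swapped arrays with the oil sample of its number, so the data are 3 couples on 6 arrays. The labels do not say whether the samples are separate animals, so p-values measure only the spread between these samples. By its title, the study is about the part that Ror1, a receptor of the Wnt5a pathway, plays in lung adenocarcinoma.

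Motile cilia are beating, hair-like projections on multiciliated cells of the airway lining, where they move mucus. Their core, the axoneme, is a ring of doublet microtubules around a central pair, with outer and inner dynein arms as motors and radial spokes as regulators. A multiciliated cell forms when Mcidas and its partners start centriole amplification and Foxj1 and the RFX factors switch on the axoneme genes. Such cells line the conducting airways and are not part of the alveolus, from whose lineage the transgene gives tumors. In bulk RNA, fewer cells of a type and less RNA per cell cannot be told apart.

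Per array and channel, here called a reading, 51.8% to 58.8% of all probes were well above background. Within couples 1, 2 and 3, the 2 dye-swapped arrays gave ratios that correlated with r of 0.87, 0.89 and 0.83 across the tested members, and of 0.76, 0.77 and 0.79 across all tested genes, though genes are not independent of each other. The Ror1 probe above background had log2 ratios of tamoxifen over oil of 0.58, 0.44 and 0.18 (mean 0.40 ± 0.21, SD, n = 3 couples, limma adjusted p = 0.69). The deleted Ror1 exons are not given in the sources used here, so this probe does not check the deletion. Sex-linked genes split the samples. The Y-linked genes Ddx3y, Eif2s3y and Uty were above background in both readings of tamoxifen samples 1 and 3 and of oil sample 3, and in 0 readings of tamoxifen sample 2 and oil samples 1 and 2. The probe named Kdm5d, also a Y-linked gene, was above background in all 12 readings and did not split them. By the other genes, couple 1 was mixed in sex-linked signal, couple 2 was without Y-linked signal and couple 3 had it in both samples. In couple 1, treatment and sex-linked signal cannot be told apart.

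Many members, like many of all genes, were at the edge of what the arrays could measure. Of 36870 gene names, 20475 genes were tested, and 18506 when all 12 readings above background were required. Of the 38 members with a probe, 18 were above background in all 12 readings, 13 in 1 to 11 readings and 7 in 0. The 7 were the inner arm heavy chains Dnah1 and Dnah3, the central pair proteins Spag6, Spag16 and Spag17, the ciliary tip protein Sntn and the dynein arm assembly factor Lrrc6. Another 7 members gave a signal in some readings but too few to be tested. These were Dnah5, Dnah10, Dnali1, Rsph4a, Ccdc39, Armc4 and Zmynd10. Over all 72 probes of the members, 31 were above background in 0 readings and 20 in all 12. These counts of detection are not read as particular to the members.

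**Figure D1:**
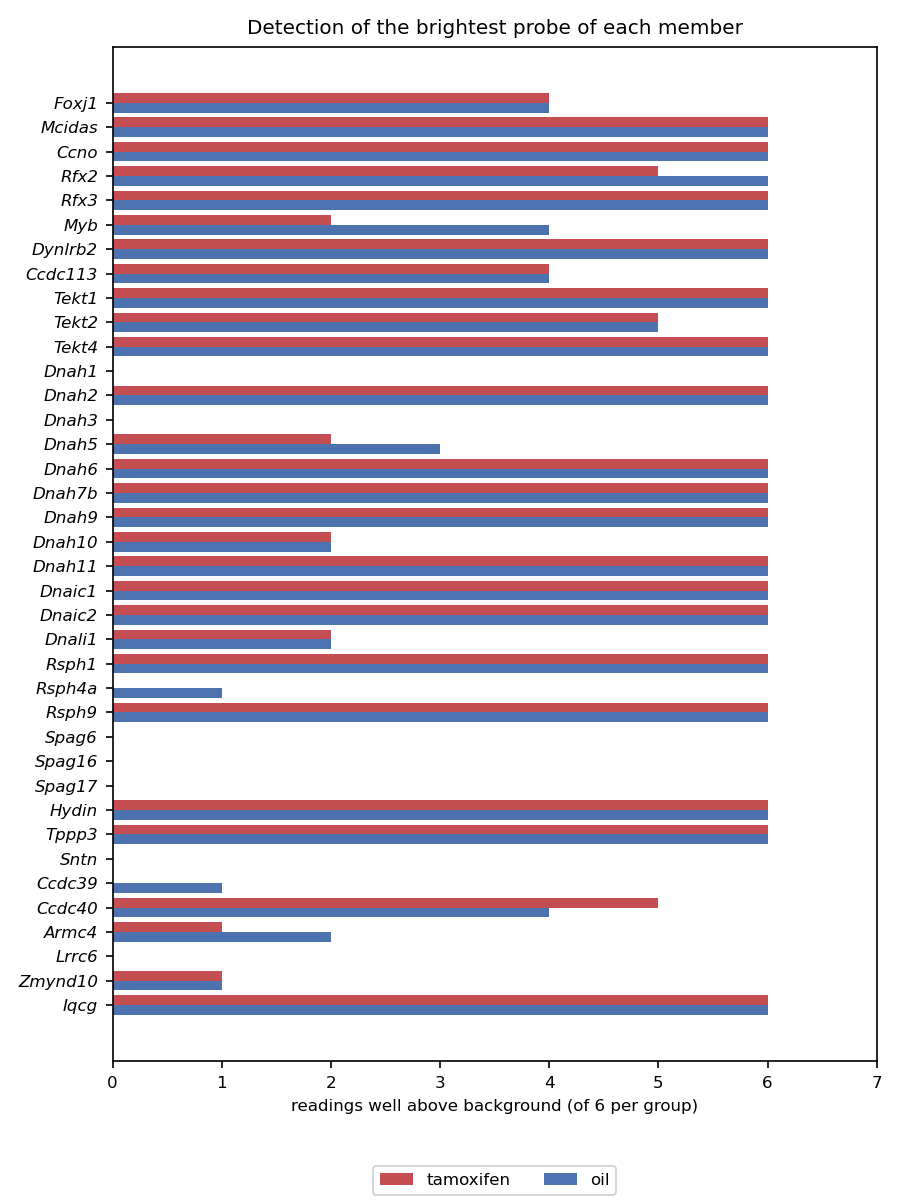
Number of readings, of 6 in each group, in which the brightest probe of each of 38 members was well above background; for each gene the upper bar is tamoxifen and the lower bar oil. Of the members, 18 reached 6 readings in both groups and 7 reached 0 in both.

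Detection was nearly even between the treatments and uneven between couples. Summed over the 38 members, 141 readings were above background in tamoxifen tumors and 147 in oil tumors. By sample, the sums were 40, 56 and 45 in tamoxifen samples 1, 2 and 3, against 47, 58 and 42 in oil samples 1, 2 and 3. Both samples of couple 2 thus stood above the other 4. The share of all probes above background was not set beside these sums by sample, so they are not read as particular to the members. Dnah10, an inner arm heavy chain, and Dnali1, an inner arm light intermediate chain, were above background in both readings of tamoxifen sample 2 and both of oil sample 2, and in 0 readings of the other 4 samples. Dnah5, the outer arm heavy chain, was above background in the same readings and in 1 reading of oil sample 1.

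No tested member passed the test between tamoxifen and oil. With limma and Benjamini-Hochberg adjustment over all tested genes, 0 of the 24 tested members passed an adjusted p of 0.05, beside 0% of all tested genes. At an unadjusted p under 0.05 the members again gave 0 of 24, beside 7.01% of all tested genes. The lowest adjusted p of a member was 0.69, and the mean log2 ratios ran between -0.50 and 0.22. In 19 of the 24 the SD over the 3 couples was larger than the absolute mean ratio. The same count over all tested genes was not made, so this is not read as particular to the members.

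The members split almost evenly around 0: the mean ratio was below 0 in 13 of 24, beside 51.2% of all tested genes. The median of the members' mean log2 ratios was -0.01, and that of all tested genes was -0.00389. By couple, the members' medians were -0.13, -0.09 and 0.10 in couples 1, 2 and 3, with 14, 20 and 6 of the 24 below 0. Of all 20475 tested genes, 10541, 10278 and 10472 were below 0 in couples 1, 2 and 3. For the members, the couples thus pointed in different directions. The ratio was lower in all 3 couples for 3 members, Mcidas, Tekt1 and Dnah9, beside 16.4% of all tested genes. It was higher in all 3 for 1 member, Rsph9, beside 13.8%. Neither count stands above the share over all genes.

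**Figure D2:**
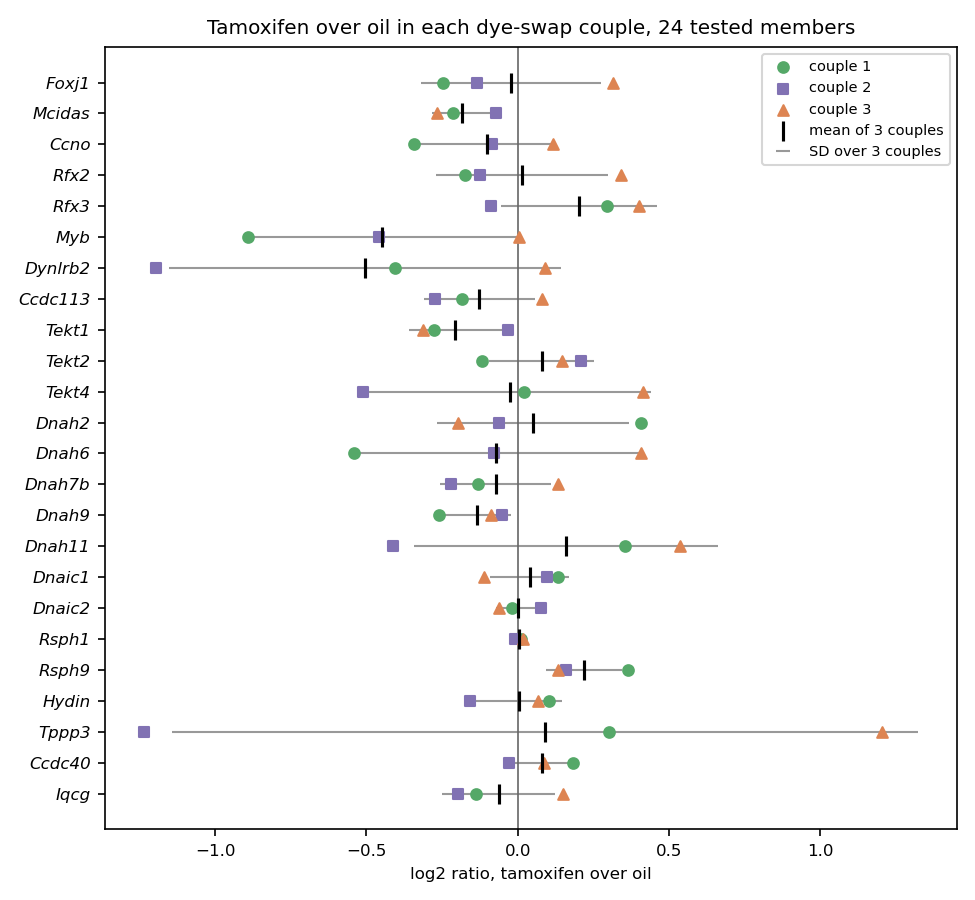
Log2 ratio of tamoxifen over oil in each of the 3 dye-swap couples for the 24 tested members; black ticks are the means and grey lines the SD over couples. The couples of Tppp3 run between -1.24 and 1.20, and only Rsph9, Mcidas, Tekt1 and Dnah9 have all 3 couples on one side of 0.

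The 6 regulators were all tested. Foxj1, the transcription factor that commits cells to motile cilia, had normalized log2 levels of 6.22, 7.09 and 6.59 in tamoxifen samples 1, 2 and 3, against 6.46, 7.22 and 6.27 in oil samples 1, 2 and 3. The groups overlapped, and the 2 samples of couple 2 were the highest of the 6. The log2 ratio of Foxj1 was -0.02 ± 0.30 (SD, n = 3 couples, limma adjusted p = 0.98), and its probe was above background in 4 of 6 tamoxifen readings and 4 of 6 oil readings. Foxj1, Ccdc113 and Ccdc40 entered the test only through the tamoxifen group, with both readings above background in 2 tamoxifen samples and 1 oil sample each.

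Mcidas, the coactivator that starts multiciliated cell formation, had log2 levels of 13.10, 13.21 and 13.22 in the 3 tamoxifen samples and 13.31, 13.28 and 13.48 in the 3 oil samples. Every tamoxifen sample lay below every oil sample. Mcidas was the 1 tested member without overlap, beside 12.3% of all tested genes. Its log2 ratio was lower on all 6 arrays and averaged -0.18 ± 0.10 (SD, n = 3 couples), but with a limma adjusted p of 0.69 it did not pass the test. The probes of Mcidas differed in detection. This one was above background in all 12 readings, and the other in 1. The brighter probe lies at chr13:113790543-113790602 and the dimmer one at chr13:113784084-113784143 (both mm9), so the high signal, and the lack of overlap, rest on 1 probe. Whether that probe measures Mcidas alone was not tested.

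Ccno, a cyclin-like protein needed for centriole amplification, had log2 levels of 6.59, 7.19 and 6.66 in the tamoxifen samples and 6.94, 7.28 and 6.55 in the oil samples. Couple 2 again held the 2 highest samples, and the groups overlapped. Its ratio was -0.10 ± 0.23 (SD, n = 3 couples, limma adjusted p = 0.85). Myb, a transcription factor active early in multiciliated cells and in dividing blood cells, had log2 levels of 6.20, 6.74 and 6.27 in the tamoxifen samples against 7.09, 7.20 and 6.27 in the oil samples. Oil samples 1 and 2 were the highest, while oil sample 3 lay among the tamoxifen samples. Myb had log2 ratios of -0.89, -0.46 and 0.00 by couple (mean -0.45 ± 0.45, SD, n = 3 couples, limma adjusted p = 0.69). Myb was above background in both readings of tamoxifen sample 2 and of oil samples 1 and 2, and in 0 readings of the other 3 samples, so it entered the test only through the oil group, where it is higher. Its ratio in couple 1 is set against a tamoxifen sample with no reading above background, and that in couple 3 has none on either side. The mean of Myb moved with the processing, to -0.68 with a normexp offset of 16 and -1.69 with the scanner software's log ratios. It was -0.23 without couple 1 and -0.68 without couple 3.

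Rfx2 and Rfx3 encode factors that bind the X-box of ciliary promoters. Rfx2 had log2 levels of 6.40, 6.49 and 6.89 in the tamoxifen samples and 6.58, 6.62 and 6.55 in the oil samples, with tamoxifen sample 3 the highest. Rfx3 had 8.22, 8.00 and 8.23 in the tamoxifen samples and 7.93, 8.08 and 7.82 in the oil samples. For both genes the groups overlapped. Their log2 ratios were 0.01 ± 0.29 for Rfx2 and 0.20 ± 0.26 for Rfx3 (SD, n = 3 couples, limma adjusted p = 0.99 and 0.74).

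RFX proteins recognise an X-box made of 2 inverted arms, of which GTTGCC is a common form. The start regions of the members were searched because these genes are known to be switched on together. RefSeq promoters (GRCm38.p6, 250 bases before to 50 after each start) were at hand for 32 members, in 35 windows. Those of Foxj1, Dnah3, Rsph1, Rsph4a, Tppp3, Armc4 and Lrrc6 were not used here. On either strand, the letters GTTGCC stood in 54.3% of the members' windows and in 12.5% of all 32851 windows of the table. This is a description of letters: no binding was measured. The stretches below show this arm in tested members of several roles, in capitals as GTTGCC or, where it lies on the other strand, as its reverse complement GGCAAC, each on its gene's own strand and wholly before the start.
Mcidas: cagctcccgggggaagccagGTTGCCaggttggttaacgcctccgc
Ccno: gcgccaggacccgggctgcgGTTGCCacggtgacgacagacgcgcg
Rfx2: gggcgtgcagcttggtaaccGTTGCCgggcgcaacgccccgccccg
Dnaic2: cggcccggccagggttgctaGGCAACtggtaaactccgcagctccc
Dynlrb2: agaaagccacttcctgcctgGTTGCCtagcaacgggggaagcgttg
Hydin: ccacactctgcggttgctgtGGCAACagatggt
Tekt1: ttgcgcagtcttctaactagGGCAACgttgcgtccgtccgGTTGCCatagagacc
Ccdc113: aaacagcgttcagttgtctaGGCAAC

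In GRCm38.p6 these stretches lie at chr13:112993653-112993698 (Mcidas, plus strand), chr13:112987563-112987608 (Ccno, plus), chr17:56831099-56831144 (Rfx2, minus), chr11:114727373-114727418 (Dnaic2, plus), chr8:116504944-116504989 (Dynlrb2, plus), chr8:110266944-110266976 (Hydin, plus), chr11:72361883-72361937 (Tekt1, minus) and chr8:95534074-95534099 (Ccdc113, plus). The arm begins 6 bases before the start in Ccdc113, 13 in Hydin, 26 in Dnaic2, 51 in Dynlrb2, 116 in Rfx2, 195 in Mcidas and 219 in Ccno. Tekt1 holds it at 35 and at 15 bases before the start, in opposite directions. A fuller X-box, searched on both strands as the arms GTNNCC and GGNNAC with at most 3 bases between them, stood in 14.3% of the members' windows and 3.86% of all windows. It was found in Ccno, Rfx2, Rsph9, Tekt4 and Zmynd10, and in Rfx2 it begins 34 bases after the start. The pattern takes any letter at N but only GG at the head of the second arm. Other forms, such as GTTGCCtagcaac in Dynlrb2, were therefore not counted, and no lack of an X-box is read from this search. Whether these hits are RFX sites was not tested. The 2 motifs overlap, since in Ccno both begin at the same base. The forkhead letters GTAAACA, a form bound by Foxj1 and its relatives, stood in 5.71% of the members' windows and 3.65% of all windows. The arm was present in 13 of the 21 tested members with a promoter and in 5 of the 11 untested ones.

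Among the outer arm heavy chains, the force-producing motors, Dnah9 and Dnah11 were tested and Dnah5 was not. Dnah9 had log2 levels of 6.92, 7.18 and 7.04 in the tamoxifen samples and 7.18, 7.23 and 7.13 in the oil samples. The ratio was lower in each couple, at -0.26, -0.05 and -0.09, and the groups overlapped by 1 tamoxifen sample. It averaged -0.13 ± 0.11 (SD, n = 3 couples, limma adjusted p = 0.75) and was mixed in sign over the 6 arrays. The values of Dnah9 rest on 1 probe, since each of its other probes was above background in at most 1 reading. Dnah11 had 7.43, 6.81 and 7.02 in the tamoxifen samples against 7.07, 7.22 and 6.49 in the oil samples. Its couples went in opposite directions, at 0.36, -0.41 and 0.54 (mean 0.16 ± 0.50, SD, n = 3 couples, limma adjusted p = 0.87).

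Inner arm heavy chains set the bend of the cilium, and Dnah2, Dnah6 and Dnah7b were tested. Dnah6 had log2 levels of 7.16, 8.31 and 7.70 in the tamoxifen samples and 7.70, 8.39 and 7.30 in the oil samples. Both samples of couple 2 were the highest, and the couples ran at -0.54, -0.08 and 0.41 (mean -0.07 ± 0.47, SD, n = 3 couples, limma adjusted p = 0.94). Another Dnah6 probe was above background in 2 tamoxifen and 2 oil readings, and the remaining Dnah6 probes in 0. Dnah2 had 7.04, 6.53 and 6.58 in the tamoxifen samples against 6.63, 6.59 and 6.77 in the oil samples, with tamoxifen sample 1 the highest. Its ratios of 0.41, -0.06 and -0.20 (mean 0.05 ± 0.32, SD, n = 3 couples, limma adjusted p = 0.95) thus ran in the opposite order to those of Dnah6. Dnah7b, whose near-identical paralogs may share its probe's signal, averaged -0.07 ± 0.18 (SD, n = 3 couples, limma adjusted p = 0.88). A second Dnah7b probe that passed the filter was above background in 3 tamoxifen and 5 oil readings. Its ratios were -0.28, -0.14 and -0.04, lower in each couple. This second probe passed the filter only through the oil group, where it is higher, so no direction is read from it.

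The intermediate chains Dnaic1 and Dnaic2, which tether the outer arm to the doublet, were above background in all 12 readings and close to even. Their mean log2 ratios were 0.04 ± 0.13 for Dnaic1 and -0.00077 ± 0.071 for Dnaic2 (SD, n = 3 couples, limma adjusted p = 0.93 and 0.998). For Dnaic2 this rests on 1 probe. Another Dnaic2 probe was above background in 1 tamoxifen and 1 oil reading, and a further one in 0. Whether the bright probe measures Dnaic2 alone was not tested. Dynlrb2, a light chain of the roadblock family and a marker of ciliated cells, had log2 levels of 9.48, 9.81 and 9.95 in the tamoxifen samples and 9.88, 11.005 and 9.86 in the oil samples. Oil sample 2 stood above all others, and the groups overlapped. The ratio of Dynlrb2 was 2.29-fold lower in couple 2, with log2 ratios of -0.40, -1.20 and 0.09 over the couples. Its mean of -0.50 ± 0.65 (SD, n = 3 couples, limma adjusted p = 0.71) was -0.16 without couple 2 and -0.80 without couple 3.

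Of the docking, ruler and assembly factors, only Ccdc40, which with Ccdc39 sets the spacing of arms along the doublet, could be tested. It averaged 0.08 ± 0.10 on the log2 scale (SD, n = 3 couples, limma adjusted p = 0.84). Ccdc39 itself was above background in 1 reading, of oil sample 1. Armc4, an outer arm docking protein, was above background in 1 reading of tamoxifen sample 2 and both of oil sample 2. Zmynd10, an assembly factor, was above background in 1 reading of each of these samples. Iqcg, a subunit of the nexin-dynein regulatory complex that links doublets, averaged -0.06 ± 0.19 (SD, n = 3 couples, limma adjusted p = 0.90).

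Of the radial spoke and central pair genes, Rsph1, Rsph9 and Hydin were tested. Rsph9, a spoke head protein, had log2 levels of 10.61, 10.02 and 10.21 in the tamoxifen samples and 10.25, 9.86 and 10.08 in the oil samples. Tamoxifen was above oil within each couple, and on all 6 arrays, yet the groups overlapped because the 2 samples of couple 2 were the lowest of the 6. The log2 ratios were 0.36, 0.16 and 0.13, averaging 0.22 ± 0.13 (SD, n = 3 couples). Rsph9 had the smallest unadjusted p of the members in limma, 0.061, and an adjusted p of 0.69. A second Rsph9 probe, above background in 6 tamoxifen and 6 oil readings, gave ratios of 0.37, 0.14 and -0.02. Its level in tamoxifen sample 2 was 7.64, above the 7.63, 7.50 and 7.61 of the oil samples. The one sign over couples and the low couple 2 levels of Rsph9 thus rest on its brightest probe. Rsph1, another spoke head protein, had the smallest spread between couples, with ratios of 0.01, -0.01 and 0.02. Hydin, a large central pair protein, averaged 0.0051 ± 0.14 (SD, n = 3 couples, limma adjusted p = 0.995). This rests on 1 probe, since the other Hydin probes were above background in 0 readings, and whether it measures Hydin alone was not tested.

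Tektins are filament proteins inside the doublets. Tekt1 had log2 levels of 6.64, 7.30 and 6.92 in the tamoxifen samples and 6.92, 7.34 and 7.23 in the oil samples. Its ratios of -0.28, -0.03 and -0.31 were all below 0 (mean -0.21 ± 0.15, SD, n = 3 couples, limma adjusted p = 0.69), while the groups overlapped, tamoxifen samples 2 and 3 both lying above oil sample 1. Tekt4 had 7.69, 7.63 and 8.02 in the tamoxifen samples against 7.66, 8.14 and 7.61 in the oil samples. Oil sample 2 and tamoxifen sample 3 were highest, and the ratios were 0.02, -0.51 and 0.41 (mean -0.03 ± 0.46, SD, n = 3 couples, limma adjusted p = 0.98). Tekt2 averaged 0.08 ± 0.17 (SD, n = 3 couples, limma adjusted p = 0.87).

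Tppp3, a tubulin-binding protein abundant in ciliated cells, varied most between couples. It had log2 levels of 11.48, 11.06 and 12.46 in the tamoxifen samples and 11.18, 12.29 and 11.26 in the oil samples. Tamoxifen sample 3 and oil sample 2 were the highest, 1 in each group, and the groups overlapped. The ratio was 2.35-fold lower in couple 2 and 2.30-fold higher in couple 3, so the mean of 0.09 ± 1.23 (SD, n = 3 couples, limma adjusted p = 0.97) describes neither couple. A second Tppp3 probe gave log2 ratios of 0.38, -1.17 and 1.20 beside 0.30, -1.24 and 1.20 for the first. Ccdc113, a ciliary protein, averaged -0.13 ± 0.18 (SD, n = 3 couples, limma adjusted p = 0.79).

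Within single couples, few members passed a 1.5-fold difference. In couple 1, 1 of 24 was at least 1.5-fold lower, Myb, with the limit on detection given above, beside 3.89% of all tested genes, and 0 were higher, beside 2.5%. In couple 2, Tppp3 and Dynlrb2 were lower, 2 of 24 beside 2.32%, and 0 were higher, beside 1.98%. In couple 3, 0 were lower, beside 2.57%, and Tppp3 was the 1 higher, beside 2.45%. The order of couple 2 below couple 1 and couple 1 below couple 3 was seen in 9 of 24 members, beside 14.4% of all tested genes. This order was looked for after the values were seen, and no test was run on it.

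**Figure D3:**
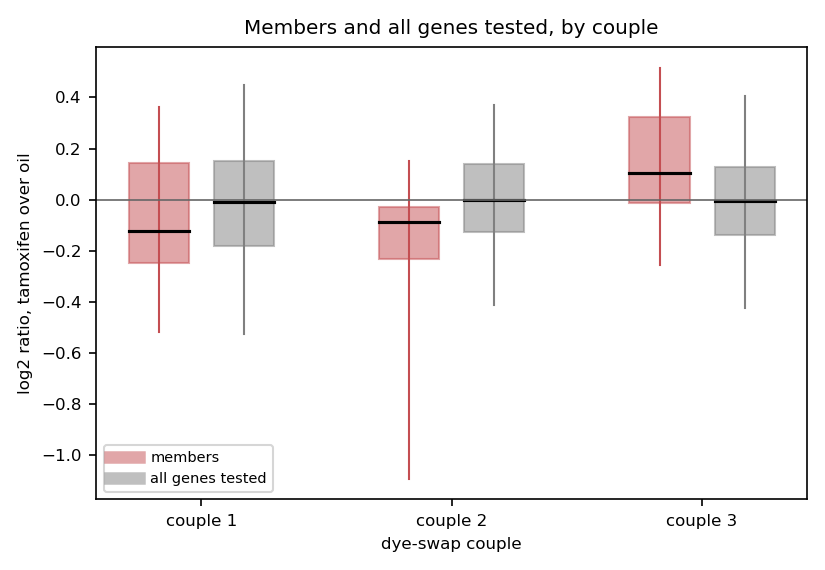
Log2 ratio of tamoxifen over oil by couple, for the 24 tested members (red, left) and all 20475 tested genes (grey, right): boxes span the 25th to 75th percentile, lines the 5th to 95th, black bars the medians. The members' medians are -0.13, -0.09 and 0.10 in couples 1, 2 and 3, while those of all genes stay near 0.

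A pattern held by several members lay between couples. In 9 of the 24 tested members both samples of couple 2 lay above the other 4 samples, beside 6.39% of all tested genes. These were the regulators Foxj1 and Ccno, the heavy chain Dnah6, the intermediate chain Dnaic1, the spoke head gene Rsph1, Ccdc40, Tekt1, Tekt2 and Ccdc113. The same was seen for couple 1 in 2 of 24, beside 7.54%, and for couple 3 in 0 of 24, beside 8.03%. Couple 2 was picked out after the values were seen, so these counts are descriptions without a test. The 2 samples of a couple also shared their arrays, so sample pair and array pair cannot be told apart. Both couple 2 samples lacked Y-linked signal, as did oil sample 1. The part of sex-linked signal in this pattern was not tested.

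For Dnah6, the mean log2 level in couple 2 was 0.88 above the mean of the other 4 samples. This difference was 0.55 for Ccno, 0.39 for Tekt1, 0.28 for Rsph1 and 0.15 for Dnaic1, which like Dnah6 were above background in all 12 readings. It was 0.80 for Ccdc113, 0.77 for Foxj1, 0.24 for Tekt2 and 0.20 for Ccdc40, whose other 4 samples were partly not above background. Their differences are pulled toward 0, so no order of size is read from them. The largest tamoxifen over oil difference of Dnah6 was -0.54, in couple 1. Since Dnah6 was named here for its high couple 2 levels, no comparison of the 2 sizes is read from it. Oil sample 2 was the highest of the 6 in 13 of 24 members, beside 14.1% of all tested genes. Tamoxifen sample 1 was the lowest in 11 of 24, beside 22.9%.

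**Figure D4:**
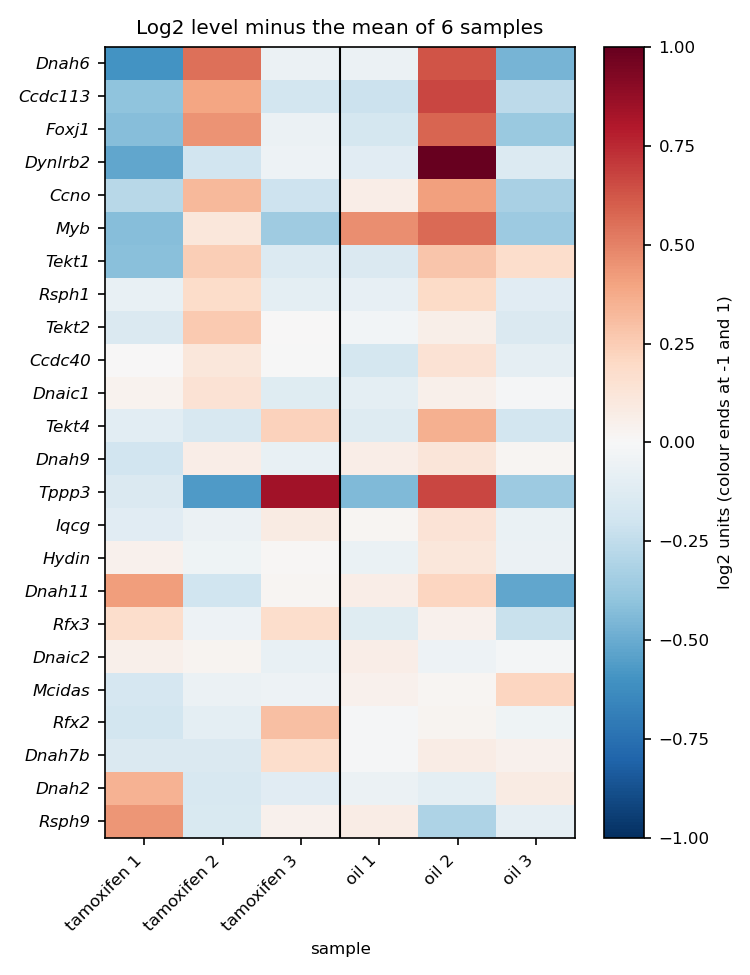
Log2 level of each of the 24 tested members minus its mean over the 6 samples, tamoxifen samples left of the line and oil samples right of it; genes are ordered by couple 2 minus the other samples. The columns of tamoxifen sample 2 and oil sample 2 are both red for Dnah6, Ccdc113, Foxj1 and Ccno, while Rsph9 at the bottom is blue in both.

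The members that did not follow it differed among themselves. Tppp3 and Tekt4 were high in oil sample 2 and tamoxifen sample 3. Dynlrb2 was high in oil sample 2 alone. Rsph9 was the 1 tested member with both couple 2 samples lowest, 0.35 below the mean of the others, though not on its second probe. The mean of couple 2 minus that of the other samples was 0.51 for Myb, with the limit on detection given above, 0.14 for Dnah9 and -0.19 for Dnah2. Rfx2, Rfx3, Mcidas, Dnah7b, Dnah11, Dnaic2, Hydin and Iqcg had the mean of couple 2 within 0.06 of the other samples. The probes of Dnah7b differed in this. On its second probe tamoxifen sample 2 and oil sample 2 were the highest, at 6.90 and 7.04. The others were 6.27 and 6.42 in tamoxifen samples 1 and 3, and 6.56 and 6.46 in oil samples 1 and 3.

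Other gene groups were set beside the members. Of 86 further motile cilia genes, 55 were tested, and 0 passed the adjusted p. Their mean ratios were below 0 in 29 and above 0 in 26, beside 51.2% of all tested genes below 0. Both couple 2 samples were highest in 20 of these 55, beside 6.39% of all tested genes. Dnaaf3, an assembly factor of dynein arms, had a mean log2 ratio of -0.40 ± 0.21, and Riiad1 had -0.31 ± 0.19 (SD, n = 3 couples, limma adjusted p = 0.69 for each). Of 29 listed genes of centriole amplification and its upstream control, 22 were tested. The mean was above 0 in 18, beside 9983 of all 20475 tested genes, and 2 had couple 2 highest, beside 6.39%. Among these, Cep164, a distal appendage protein of the centriole, had 0.21 ± 0.024, and Ccp110, a cap that keeps centrioles from growing cilia, had -0.27 ± 0.12 (SD, n = 3 couples, limma adjusted p = 0.69 for each).

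Genes of intraflagellar transport and the BBSome serve primary as well as motile cilia. Of 40 such genes 39 were tested, and 28 of them were above 0, beside 9983 of all 20475 tested genes. In all 3 couples 12 were higher, beside 13.8% of all tested genes, and 4 lower, beside 16.4%. None passed the adjusted p. Ift140, a subunit of the retrograde transport complex, had 0.34 ± 0.086, and Bbs4, a BBSome subunit, had 0.26 ± 0.058 (SD, n = 3 couples, limma adjusted p = 0.69 for each). Both couple 2 samples were highest in 2 of the 39, beside 6.39% of all tested genes, where the axoneme genes had 9 of 24. The difference between the 2 lists was not tested.

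Markers of ciliated cells and of some other cell types were high in couple 2. Of 9 ciliated cell markers, 5 of them members, 8 were tested. Those that are no members, Cdhr3, Fam183b, Ccdc153 and Tmem212, are among the further motile cilia genes above. In 6 of the 8 tested markers both couple 2 samples were highest, beside 6.39% of all tested genes. All 6 were already counted among the members or the further motile cilia genes, so they add no separate support. Averaged over the 8 centred markers, the levels were -0.55, 0.33 and 0.02 in the tamoxifen samples and -0.22, 0.79 and -0.37 in the oil samples. Sntn alone of the 9 was above background in 0 readings. Ccdc153, a ciliated cell marker that is no member, had log2 levels of 6.52, 8.41 and 7.47 in the tamoxifen samples and 7.21, 8.76 and 6.88 in the oil samples. All 15 club and secretory airway markers were tested, and 7 had both couple 2 samples highest. Scgb1a1, the main secreted protein of club cells, had 12.54, 15.76 and 15.09 in the tamoxifen samples and 14.28, 15.68 and 14.03 in the oil samples. Muc5b, an airway mucin, had 7.57, 10.41 and 8.45 in the tamoxifen samples and 7.95, 10.34 and 7.62 in the oil samples. The other 8 did not follow. Cckar had 10.73, 9.78 and 9.79 in the tamoxifen samples and 9.94, 8.80 and 9.72 in the oil samples, with oil sample 2 the lowest. Averaged over the 15 centred markers, the samples ranged between -0.50 and 0.62 in the tamoxifen group and between -0.51 and 0.95 in the oil group, with the highest in sample 2 of each. Both couple 2 samples were highest in 3 of 6 fibroblast markers, 1 of 3 neuroendocrine, 1 of 5 airway smooth muscle and cartilage, 1 of 8 macrophage and 1 of 10 alveolar type 2 markers. The count was 0 among the 3 basal airway, 8 alveolar type 1, 6 endothelial, 5 lymphocyte, 3 mesothelial and 7 proliferation markers tested. The part of airway or other cell content in the members' levels was not tested.

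**Figure D5:**
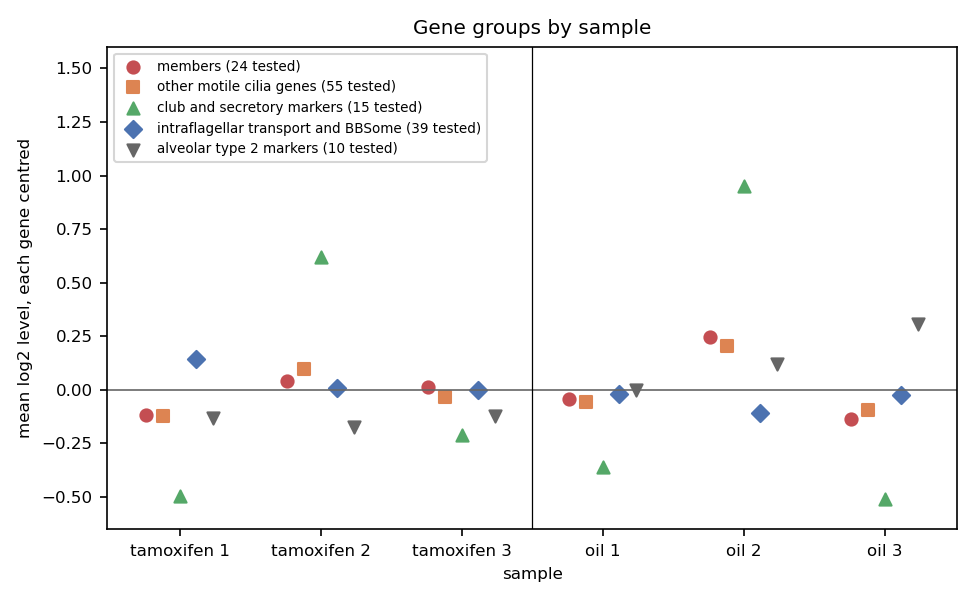
Mean log2 level of 5 gene groups in each sample, every gene centred on its mean over the 6 samples, with tamoxifen samples left and oil samples right. The members (red) average 0.041 in tamoxifen sample 2 and 0.25 in oil sample 2, and the club and secretory markers (green) are highest in the same samples, at 0.62 and 0.95.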

How the data were processed

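RNA of 3 tamoxifen and 3 oil tumors was measured on 6 2-colour Agilent arrays. Per the file headers, each deposited scanner file gives the spots' intensity (mean foreground, median background), 0 or 1 flags and a log10 ratio of Cy5 over Cy3 after the software's own dye normalization. Per the submitters' processing notes this was Agilent Feature Extraction 12.0.3.1. The deposited table gives a log2 ratio, also of Cy5 over Cy3: its slope on the log10 ratios was 3.32 to 3.33 and its column medians were 0.14, -0.14, -0.064, 0.13, -0.15 and -0.0054, so scale, centring and direction are known. Probe positions are mm9, and exons of that build were not used here.

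With limma 3.58.1 in R 4.3.3, intensities were background-corrected (normexp, offset 50) and loess-normalized within arrays, with control spots at weight 0 and 89 to 132 outlier spots per array left out. Spots of a probe were averaged, and the brightest probe stood for a gene name. A gene was tested if the tamoxifen channel, or the oil channel, of 2 or more couples was well above background in both dyes. Arrays were turned to tamoxifen over oil, dye swaps averaged, and the 3 couples tested against 0 (lmFit, eBayes, two-sided, Benjamini-Hochberg over all tested genes, threshold 0.05). The procedure was tested on simulated data. Levels per sample are log2 channel signals after Aquantile normalization, averaged over 2 arrays. The offset pulls ratios of dim probes toward 0. The median SE of a tested member was 0.10 on the log2 scale, and the number of arrays limits precision. Replicate numbers pair the samples because each couple shared its arrays.

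Named with full values were the 6 regulators, members with one sign in all couples, the 3 largest absolute ratios of each couple, the smallest p, and in each other list the 2 genes with the smallest p among those of one sign in all couples. Genes named for the couple 2 pattern, and the markers shown with it, were chosen after their values were seen. The members and lists were chosen with earlier results of these data known. Marker lists for basal, neuroendocrine, smooth muscle and cartilage, alveolar type 1, endothelial, fibroblast, macrophage, lymphocyte, mesothelial and dividing cells had 0 genes past the adjusted threshold.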

Additional observations from a re-analysis of the deposited data

How the results depend on the processing

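No tested member passed the adjusted p under any of the 16 alternatives. Over all genes, 0 passed in the main analysis. The replicate block (6 arrays, couple as random block) gave 56 genes and, with a dye term added after seeing the data, 9. Treating the samples as unpaired called 1. None of these calls was a member. With no filter on dim probes, 23 of 38 members were below 0 and 7 had the same sign in all couples. Leaving out 1 couple at a time gave 6 to 14 members of one sign over the remaining 2 couples (12 without couple 2), 10 to 17 members below 0, and a median between -0.15 and 0.012, the lowest without couple 3. Members near 0 changed sign. Foxj1 was 0.0022 with median centring and 0.044 on the arrays with tamoxifen in Cy3, where Dnah2 was -0.032. Rfx2 was -0.040 with the software's log ratios, deposited table included, and -0.0090 on the arrays with tamoxifen in Cy5, where Dnah6 was 0.081 and Tekt4 0.0078. With 1 couple left out, the ranges were -0.19 to 0.091 for Foxj1, -0.21 to 0.017 for Ccno, -0.15 to 0.11 for Rfx2, -0.31 to 0.16 for Dnah6, -0.13 to 0.17 for Dnah2, -0.47 to 0.75 for Tppp3, -0.25 to 0.22 for Tekt4, -0.029 to 0.45 for Dnah11, -0.68 to -0.23 for Myb and -0.80 to -0.16 for Dynlrb2. Myb was -0.68 with offset 16 and -1.69 with the software's log ratios, and Dynlrb2 then -0.52 in both. The cause was not tested. The count of members with both couple 2 samples highest, tried under 6 alternatives chosen after seeing the data, was 9 or 10 under other normalization and background correction, 5 among the 18 members above background in all readings and 19 of 38 with no filter, where fewer and more genes enter. No share over all genes was set beside the counts of members by sign or couple under these alternatives. Those counts are therefore not read as a result about the members. Signal over background limits what the 14 untested members can show.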
